A study of Mus musculus with 10 samples.

Results

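Solute carrier (SLC) genes encode the membrane proteins that carry ions, metals, sugars, amino acids, nucleotides, vitamins and organic anions across the plasma membrane and the membranes of organelles. Their expression was compared in peritoneal macrophages grown in culture, 5 libraries from control mice (CTR) against 5 from Mac-GsαKO mice (KO). Genes were taken by their mouse symbol, Slc followed by a number or Slco, where they were protein-coding and reached at least 1 CPM (a count scaled to its library's total) in at least 5 of the 10 libraries. Of 53465 genes in the count table, 385 were protein-coding SLC genes. Of these, 101 had no count in any library, 202 were under the CPM minimum (those without a count among them), and 7 were over it but left out by name (Slc2a1, Slc16a3, Slc7a2, Slc7a11, Slc11a1, Slc11a2 and Slc40a1). The other 176 genes were analysed, and all 176 passed the filter on low counts and were tested. Close inside the CPM minimum was Slc35g1, whose fifth-highest library held 1.13 CPM, and just outside were Slc7a4 and Slc27a6, with 0.998 and 0.889 CPM. Of the 202 genes under the minimum, 5 were tested and 0 had an adjusted p under 0.05 by edgeR's quasi-likelihood test, while 2 had an unadjusted p under 0.05. These were Slc27a6 and Slc6a12, both lower in KO, and neither reached 1 CPM in any KO library.

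Both groups were mice of 6 to 8 weeks, and the macrophages were kept in DMEM with 10% FBS and antibiotics without any added agent. The name Mac-GsαKO stands for loss of Gsα from macrophages. Gsα, encoded by Gnas, couples receptors to adenylyl cyclase and so to cyclic AMP. The Cre line or promoter behind the deletion, the genotype of the controls beyond the name CTR, the strain, the sex, and whether 1 library is 1 mouse or a pool were not given in the sources used here. Hence p-values below measure the spread between libraries, which may be technical. The title of the series places the comparison in the study of how macrophages become foam cells.

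SLC proteins are secondary active or facilitative transporters: they move a substrate down its own gradient, or use the gradient of sodium, protons, potassium or another solute to drive it. In macrophages they feed the cell, recycle what lysosomes digest from engulfed material, set cell volume and pH, and control the metals that microbes and heme enzymes compete for. The families are named by number, so that Slc7 genes, for instance, encode amino acid transporters, many of them light chains that need a heavy chain such as Slc3a2 to reach the surface, and Slc25 genes encode carriers of the inner mitochondrial membrane.

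Total counts ran from 15664243 to 18028974 in CTR and from 16877249 to 19235777 in KO libraries. Gnas was at 487, 359, 459, 491 and 378 CPM in CTR 1 to CTR 5 and at 43.5, 37.0, 39.6, 42.3 and 38.8 CPM in KO 1 to KO 5, a log2FC (log2 fold change, KO over CTR, here and below ± its SE) of -3.43 ± 0.11, so every library matched its label. All 8 macrophage markers were tested, and 2 rose (Csf1r and Itgam) and 1 fell (Lyz2). Csf1r rose from 942 ± 89.4 to 1295 ± 113 CPM (adjusted p = 0.0235), Cd68 stood at 2929 ± 197 and 2828 ± 112 CPM, and Lyz2 fell from 26528 ± 3802 to 9239.8 ± 517 CPM (adjusted p = 2.03e-05), all by edgeR. Markers of other cells summed to little. B cell markers held 1.68 to 5.53 CPM in CTR and 4.52 to 8.81 CPM in KO, T and NK cell markers 3.44 to 5.87 and 4.06 to 5.74, neutrophil markers 19.1 to 27.8 and 12.5 to 25.7 with Ly6g at 0, and mast cell markers 3.31 to 29.9 and 1.45 to 18.6. Eosinophil markers held 3.65 to 7.88 and 4.46 to 9.85 CPM, dendritic cell markers 1.87 to 3.80 and 2.61 to 3.56, mesothelial markers 7.30 to 50.6 and 17.6 to 25.8, fibroblast markers 30.1 to 137 and 48.8 to 65.3, and erythroid markers 0 to 0.339 and 0 to 0.232. CTR 5 was the library with the highest fibroblast and mesothelial sums. CTR 4 and CTR 5 also correlated least with their own group over all genes, with a mean r of 0.962 and 0.967 against 0.972 to 0.976 in the other CTR and 0.979 to 0.983 in the KO libraries. SLC genes made up 0.985% of the counts in CTR 4, against 1.15% to 1.20% in the other CTR and 1.17% to 1.26% in the KO libraries. Values without both libraries stand beside results whose call or median they change, and the part of these features in the results was not tested.

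Few SLC genes passed the test between the genotypes. By edgeR's quasi-likelihood test, 3 of the 176 genes rose (1.70%) and 0 fell, where over all 13203 genes tested 1.83% were called higher, 2.11% lower and 3.94% in either direction. The genes that rose were Slco2b1, an organic anion transporter, Slc43a2, a carrier of large neutral amino acids, and Slc12a4, a potassium-chloride cotransporter. At an unadjusted p under 0.05, 22 SLC genes were higher (12.5%) and 14 lower (7.95%), against 10.0% and 11.9% of all genes. Without overlap between the genotypes, 14 were higher (7.95%) and 0 lower, where 3.25% and 4.55% of all genes were so (7.8% in either direction). The median log2FC was 0.038 over the SLC genes, with 100 above 0 and 76 below, and -0.00581 over all genes. The SLC median was 0.014 without CTR 4 and CTR 5 and -0.00606 after a correction for gene length and GC content. With library size alone as the scale the share above 0 was 62.5% in place of 56.8%. Over all genes that share was 54.4% in place of 49.2%. At least 1.5-fold differences were seen in 9 of 176 (5.11%), against 9.13% of all genes, and at least 2-fold differences in 4. SLC counts summed to 11485 ± 383 CPM in CTR and 12025 ± 306 CPM in KO.

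The count of calls depended on the libraries in the fit. Without CTR 4 and CTR 5, an alternative chosen after seeing the data, 15 SLC genes were called higher and 5 lower (8.52% and 2.84%), where 5.13% and 3.63% of all genes were so, 8.76% in all. Without CTR 4 alone 6 were higher and 1 lower, where 6.49% of all genes were called in either direction, and without CTR 5 alone 5 and 0, beside 3.16%. Without CTR 3, KO 1, KO 2 or KO 4 Slco2b1 alone was left, beside 0.906%, 0.982%, 0.465% and 0.952% of all genes.

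Per length, on the FPKM scale, the highest of the 176 was Slc9a3r1, at 217 ± 29.4 FPKM in CTR and 214 ± 17.4 in KO. It carries an SLC symbol but encodes a scaffold protein that tethers transporters and receptors to the cortex. Next came Slc48a1, which moves heme out of phagolysosomes, with a mean over the 10 libraries of 131 FPKM, and Slc39a1, a zinc importer, with 124. Slc25a5, the adenine nucleotide translocase of dividing cells, followed with 109 FPKM, then the lysosomal peptide and histidine transporter Slc15a3 with 97.6 and the taurine transporter Slc6a6 with 86.5. None of these 6 passed the test, and their log2FC values ran from -0.26 (Slc25a5, adjusted p = 0.188) to 0.11 (Slc6a6, adjusted p = 0.659). By comparison, the called Slco2b1 held 1.504 ± 0.334 FPKM in CTR and 4.27 ± 1.21 in KO.

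**Figure D1:**
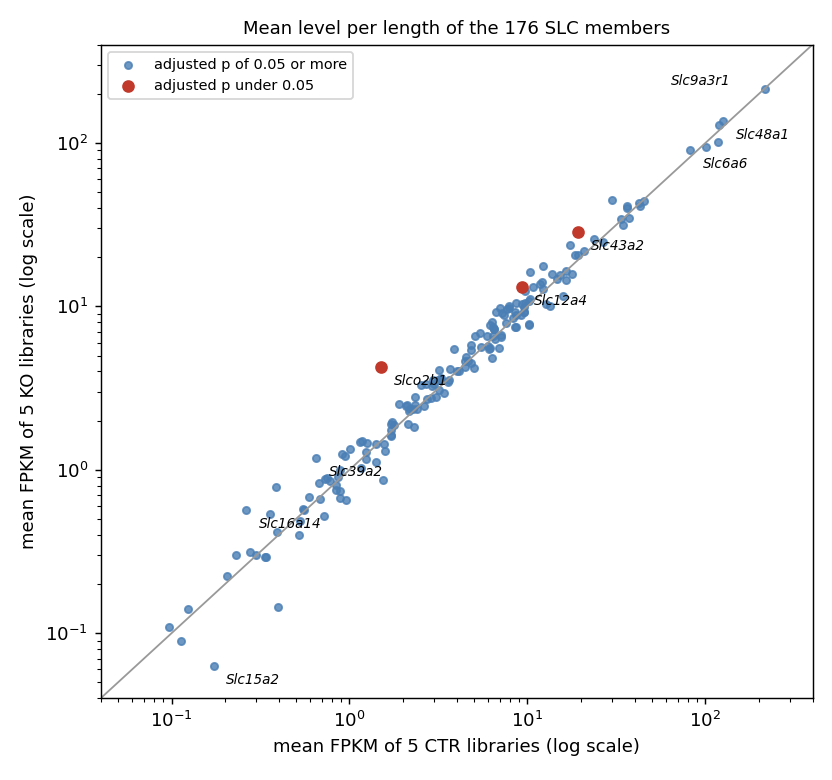
Mean FPKM of each of the 176 SLC genes in the 5 CTR libraries (x axis) and the 5 KO libraries (y axis), both on a log scale, with the line of equal values; red points have an adjusted p under 0.05 by edgeR. Most points lie along the line over the whole range, and Slco2b1 stands above it at 1.504 against 4.27 FPKM.

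Slco2b1 encodes an organic anion transporting polypeptide that takes up steroid sulfates and many drugs. It was at 17.0, 10.7, 14.1, 17.5 and 9.91 CPM in CTR 1 to CTR 5 and at 56.2, 37.3, 31.97, 28.1 and 36.5 CPM in KO 1 to KO 5. The lowest KO library stood above the highest CTR library, and KO 1 was the highest of all. The gene rose from 13.8 ± 3.50 CPM in the controls to 38.0 ± 10.8 in the knockouts (log2FC 1.46 ± 0.21, adjusted p = 0.00666), and in bulk RNA a change in the cells that express it cannot be told apart from a change per cell. It was called in all 20 other settings, with an adjusted p of at most 0.0227, and at a log2FC of 1.45 without CTR 4 and CTR 5. No other member of its class passed the test. Its relatives Slco2a1, the prostaglandin transporter, and Slco3a1 stood at 1.72 ± 0.765 and 3.17 ± 1.02 CPM in CTR, with log2FC values of -0.35 ± 0.31 (adjusted p = 0.553) and -0.014 ± 0.26 (adjusted p = 0.982).

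Slc43a2 encodes LAT4, which lets branched-chain amino acids, phenylalanine and methionine cross the plasma membrane without sodium. It read 419, 417, 328, 289 and 311 CPM in CTR 1 to 5 and 553, 518.9, 504, 454 and 544 in KO 1 to 5. Again no KO library fell into the CTR range, but CTR 1 and CTR 2 lay nearer to KO than the other controls. The gene rose from 353 ± 61.2 CPM in the controls to 515 ± 39.5 in the knockouts (log2FC 0.54 ± 0.12, adjusted p = 0.0281). Leaving out CTR 3, KO 1, KO 2, KO 3 or KO 4 ended the call, with 0.0791 as the highest adjusted p, as did the replicate block, and the log2FC without CTR 4 and CTR 5 was 0.41 (adjusted p = 0.0298). With the correction for gene length and GC content it was 0.34 (adjusted p = 0.0360). Its paralog Slc43a3, a nucleobase carrier, had 5.53 ± 2.62 and 4.59 ± 1.35 CPM (log2FC -0.27 ± 0.33, adjusted p = 0.661). In GENCODE M21, 9.18% of the exonic bases of Slc43a2 overlap Gm45606 on the opposite strand, itself at 17.0 CPM in CTR against 26.3 in KO. The strand setting of the counting was not given in the sources used here, so reads of both genes in that stretch cannot be told apart. For Slco2b1 and Slc12a4 the opposite-strand genes Gm15635 and Gm16156 cover 7.91% and 8.44% of the exonic bases. Gm15635 was at 0.110 CPM in CTR against 0.497 in KO, and Gm16156 at 0.195 against 0.152.

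Slc12a4 encodes KCC1, which lets potassium and chloride leave together when a cell must shrink. It read 47.3, 50.7, 46.4, 60.1 and 49.6 CPM in CTR 1 to 5 and 65.0, 70.8, 63.3, 67.2 and 84.3 in KO 1 to 5. CTR 4 came close to the KO range but not into it, and KO 5 was the highest. The gene rose from 50.8 ± 5.45 CPM in the controls to 70.1 ± 8.39 in the knockouts (log2FC 0.46 ± 0.10, adjusted p = 0.0333), with a log2FC of 0.54 (adjusted p = 0.0104) without CTR 4 and CTR 5. Leaving out CTR 1, CTR 2, CTR 3, CTR 5, KO 1, KO 2 or KO 4 ended the call, with 0.0923 as the highest adjusted p, as did dropping the filter on low counts and the replicate block.

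The promoters of these 3 genes are shown because Gsα signals through cyclic AMP, whose factor CREB binds the full cyclic AMP response element TGACGTCA. Of the 176 genes, 133 matched the RefSeq promoter table (build GRCm38.p6, 250 bases before to 50 after each start) with 180 promoters. That element, searched on both strands, stood in 3 of the 180 (1.67%), against 1.79% of all 32851 promoters and 3.04% of those of tested genes. The E-box CACGTG, bound by MYC, USF and MiT/TFE factors, stood in 26 of the 180 (14.4%), in 24 genes, against 7.15% and 10.1%. The ATF4 element TGATGCAAT stood in 0 of the 180, against 0.192% and 0.100%. None of the 6 promoters of the called genes held any of these motifs, which says only that the letters are not in these windows. The sequences run 5′ to 3′ on the gene's own strand, for Slco2b1 at the most upstream of its 3 starts and for Slc43a2 at the most upstream of 2, and they carry no capitals since no motif was found.
Slco2b1, chr7:99711291-99711590, minus strand: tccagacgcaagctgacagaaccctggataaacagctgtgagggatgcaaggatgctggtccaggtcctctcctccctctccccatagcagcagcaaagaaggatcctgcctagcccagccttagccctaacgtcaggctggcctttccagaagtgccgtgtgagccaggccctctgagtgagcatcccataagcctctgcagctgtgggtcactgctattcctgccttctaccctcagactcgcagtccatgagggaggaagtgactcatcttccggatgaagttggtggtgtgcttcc
Slc43a2, chr11:75531444-75531743, plus strand: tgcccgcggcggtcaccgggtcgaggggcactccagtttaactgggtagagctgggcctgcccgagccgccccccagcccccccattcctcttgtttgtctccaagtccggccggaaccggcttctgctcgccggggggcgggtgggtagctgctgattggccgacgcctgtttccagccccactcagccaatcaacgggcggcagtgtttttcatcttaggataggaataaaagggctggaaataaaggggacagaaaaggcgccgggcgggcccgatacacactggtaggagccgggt
Slc12a4, chr8:105966066-105966365, minus strand: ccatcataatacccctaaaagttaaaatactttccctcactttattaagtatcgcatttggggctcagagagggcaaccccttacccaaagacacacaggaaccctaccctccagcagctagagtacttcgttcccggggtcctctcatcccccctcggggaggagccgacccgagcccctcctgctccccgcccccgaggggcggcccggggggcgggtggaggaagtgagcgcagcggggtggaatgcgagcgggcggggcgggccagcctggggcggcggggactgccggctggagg

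The 3 promoters that hold the cyclic AMP response element belong to Slc25a25, a calcium-activated carrier of ATP-magnesium, Slc25a36, a carrier of pyrimidine nucleotides, and Slc38a6, a member of the glutamine transporter family. They are shown with the element in capitals, which starts at position -150, -161 and -121 relative to the start of the promoter shown. For Slc25a25 that is the most downstream of 3 starts, and the promoters of the other two hold no such element; in Slc25a36 the E-box at -187 is in capitals too.
Slc25a25, chr2:32424017-32424316, minus strand: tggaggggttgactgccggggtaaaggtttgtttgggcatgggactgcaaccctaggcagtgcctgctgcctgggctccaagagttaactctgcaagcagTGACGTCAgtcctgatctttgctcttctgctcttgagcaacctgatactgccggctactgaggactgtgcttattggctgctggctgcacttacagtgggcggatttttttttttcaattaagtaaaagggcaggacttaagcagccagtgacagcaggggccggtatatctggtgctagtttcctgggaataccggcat
Slc25a36, chr9:97110992-97111291, minus strand: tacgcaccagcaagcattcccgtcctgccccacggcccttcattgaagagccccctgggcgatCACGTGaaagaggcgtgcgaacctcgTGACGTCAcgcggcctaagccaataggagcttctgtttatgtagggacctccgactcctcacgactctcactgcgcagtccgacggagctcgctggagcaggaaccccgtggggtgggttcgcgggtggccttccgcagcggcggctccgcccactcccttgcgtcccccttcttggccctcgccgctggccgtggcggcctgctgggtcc
Slc38a6, chr12:73286598-73286897, plus strand: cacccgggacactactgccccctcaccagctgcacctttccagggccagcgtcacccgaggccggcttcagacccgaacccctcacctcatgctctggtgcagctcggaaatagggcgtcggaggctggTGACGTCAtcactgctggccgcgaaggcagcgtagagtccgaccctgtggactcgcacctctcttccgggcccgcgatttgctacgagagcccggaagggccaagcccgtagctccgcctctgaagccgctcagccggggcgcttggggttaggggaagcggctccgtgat
None of these genes was called. Slc25a25 averaged 14.8 ± 2.46 CPM in the controls and 19.1 ± 4.24 in the knockouts (log2FC 0.37 ± 0.16, adjusted p = 0.209). Slc25a36 had 32.6 ± 4.66 and 37.3 ± 2.67 CPM (log2FC 0.19 ± 0.11, adjusted p = 0.324), and Slc38a6 41.3 ± 4.58 and 38.9 ± 2.64 CPM (log2FC -0.088 ± 0.10, adjusted p = 0.622). Since none was called, no direction is read from these signs, and the part of the element was not tested.

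**Figure D2:**
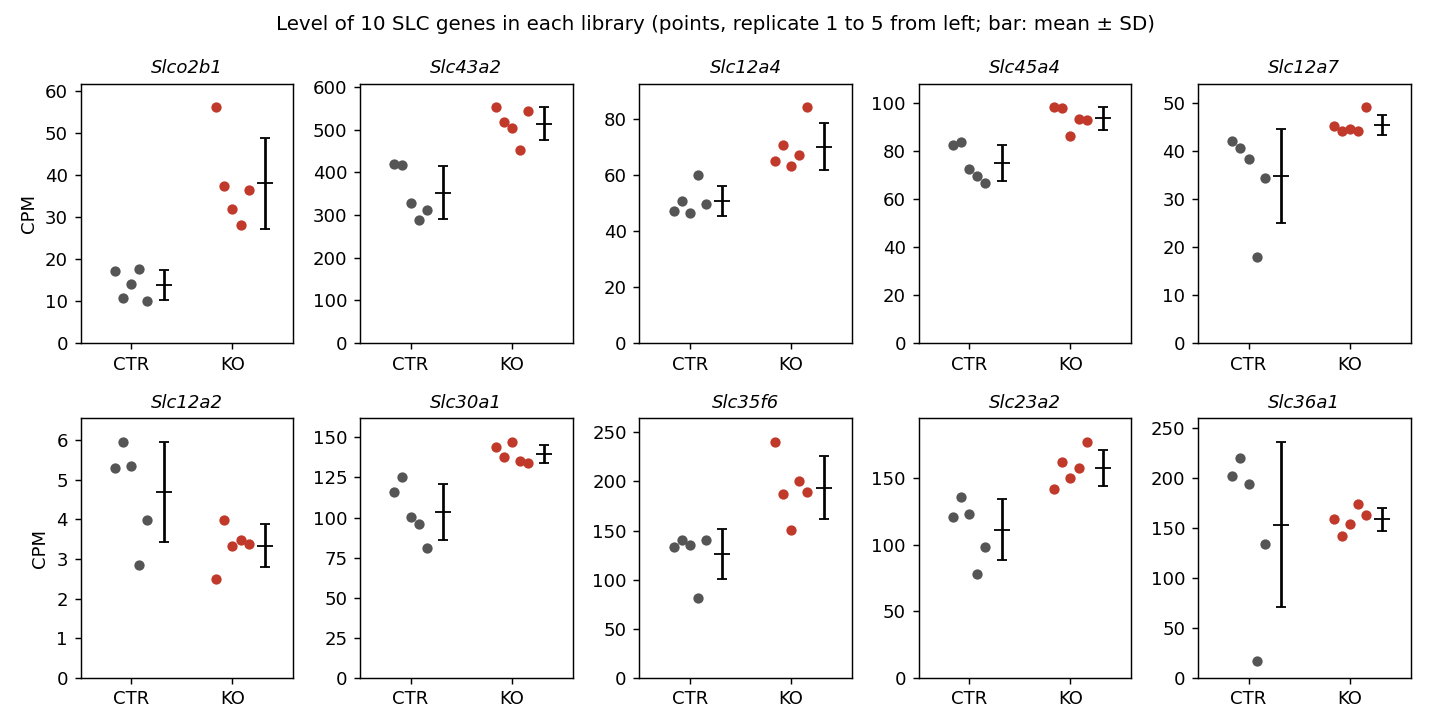
CPM of 10 SLC genes in each library (points, replicates 1 to 5 from left to right, CTR grey and KO red), with the mean ± SD beside them (n = 5). Only Slc12a2 and Slc36a1 overlap between the genotypes, and the others, called (Slco2b1, Slc43a2 and Slc12a4) or not, do not. CTR 4 lies far below the other controls in Slc12a7, Slc35f6 and Slc36a1.

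Inorganic ion transporters numbered 23, of which 1 was called (Slc12a4), 5 were higher and 1 lower at an unadjusted p under 0.05, and 5 were higher without overlap. Over all genes 3.94% were called, and 10.0% were higher and 11.9% lower at an unadjusted p under 0.05. Without overlap 3.25% of all genes were higher and 4.55% lower. These shares are the reference for the counts of the classes and lists below as well. The class median was 0.15, or 0.076 without CTR 4 and CTR 5. Of its members 69.6% were above 0, or 82.6% with library size alone as the scale. Of all genes 49.2% were above 0, or 54.4% on that scale. The summed level was 783 ± 65.7 CPM in CTR and 896 ± 41.8 CPM in KO. Slc12a7 (KCC4), a potassium-chloride cotransporter like Slc12a4, read 42.1, 40.5, 38.4, 17.9 and 34.4 CPM in CTR 1 to 5 and 45.2, 44.0, 44.5, 44.0 and 49.0 in KO 1 to 5. The genotypes did not overlap, and CTR 4 stood far below the other controls. With CTR 4 left in the log2FC was 0.39 ± 0.18 (adjusted p = 0.238), while without CTR 4 and CTR 5 it was 0.17 (adjusted p = 0.139).

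Slc12a2 encodes NKCC1, which carries sodium, potassium and chloride inward, the opposite way to the KCC proteins. It read 5.31, 5.96, 5.36, 2.84 and 3.99 CPM in CTR 1 to 5 and 2.49, 3.996, 3.32, 3.49 and 3.39 in KO 1 to 5. The groups overlapped through CTR 4 and CTR 5. The log2FC was -0.49 ± 0.21 (adjusted p = 0.198), and -0.73 without these libraries, where it was called (adjusted p = 0.0279). Slc12a9, a relative without a well-settled substrate, had 35.3 ± 2.99 and 40.1 ± 3.39 CPM (log2FC 0.18 ± 0.093, adjusted p = 0.267). Outside this family, the magnesium transporter Slc41a1 averaged 13.6 ± 1.42 CPM in the controls and 17.4 ± 0.645 in the knockouts (log2FC 0.36 ± 0.10, adjusted p = 0.0629). Slc8b1, the sodium-calcium exchanger of mitochondria, averaged 73.6 ± 5.98 CPM in the controls and 87.9 ± 3.03 in the knockouts (log2FC 0.26 ± 0.08, adjusted p = 0.0892). Without CTR 4 and CTR 5 Slc8b1 was called, at 0.25 (adjusted p = 0.0454). Both were higher in every KO library than in any CTR library. Slc9a9, an endosomal sodium-proton exchanger, had a log2FC of 0.31 ± 0.14 (adjusted p = 0.221).

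Amino acid and peptide transporters numbered 22, with 1 called (Slc43a2), 2 higher and 2 lower at an unadjusted p under 0.05, a median of -0.00188 and 11 members on each side of 0. The median was -0.083 without CTR 4 and CTR 5. Slc7a8 (LAT2), an exchanger of neutral amino acids, read 155, 149.7, 168, 139 and 274 CPM in CTR 1 to 5 and 262, 278, 258, 207 and 294 in KO 1 to 5. CTR 5 lay in the KO range and the other controls below it. Its log2FC was 0.55 ± 0.17 (adjusted p = 0.0918), and 0.72 without CTR 4 and CTR 5 (adjusted p = 0.00645). Slc7a7 (y+LAT1), which exports arginine and lysine, read 37.8, 37.1, 36.6, 35.95 and 69.9 CPM in CTR 1 to 5 and 53.0, 53.0, 61.7, 46.8 and 57.7 in KO 1 to 5. CTR 5 was above every other library, and the other controls lay below the KO range. Of the exonic bases of Slc7a7, 6.998% overlap Oxa1l on the opposite strand, at 58.0 CPM in CTR against 79.2 in KO. The log2FC was 0.32 ± 0.18 (adjusted p = 0.318) with all libraries and 0.55 without CTR 4 and CTR 5 (adjusted p = 0.00864). CTR 5 is the library with the highest fibroblast and mesothelial marker sums, whose part in these values was not tested. The shared heavy chain Slc3a2 averaged 303 ± 49.5 CPM in the controls and 289 ± 24.0 in the knockouts (log2FC -0.072 ± 0.11, adjusted p = 0.738), with an approximate 95% interval from -0.29 to 0.15. That interval takes a normal distribution with this SE, so it is narrower than one from the test itself. Slc7a5 (LAT1), a light chain of proliferating cells, had 6.90 ± 1.49 and 5.56 ± 2.82 CPM (log2FC -0.31 ± 0.29, adjusted p = 0.566), and Slc7a6 (y+LAT2) 7.63 ± 0.561 and 5.08 ± 1.65 CPM (log2FC -0.59 ± 0.21, adjusted p = 0.121).

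Among lysosomal members of this class, the abundant Slc15a3 averaged 740.3 ± 39.7 CPM in the controls and 681 ± 35.8 in the knockouts (log2FC -0.12 ± 0.073, adjusted p = 0.365). Of its exonic bases 28.1% overlap Tmem132a on the opposite strand, a gene at 85.8 CPM in CTR against 80.7 in KO. Slc38a7, which exports glutamine from lysosomes, averaged 106 ± 16.4 CPM in the controls and 76.2 ± 17.7 in the knockouts (log2FC -0.48 ± 0.18, adjusted p = 0.137). KO 4 alone was at 44.7 CPM there. Slc36a1 (PAT1), a proton-coupled exporter of small amino acids, read 201, 219.5, 193, 17.0 and 134 CPM in CTR 1 to 5 and 159, 142, 154, 173 and 163 in KO 1 to 5. CTR 4 lay far under all other libraries. The log2FC was 0.046 ± 0.45 (adjusted p = 0.963) with all libraries, -0.24 without CTR 4, and -0.37 without CTR 4 and CTR 5, where the gene was called lower (adjusted p = 0.0205). With all libraries and the correction for length and GC content it was -0.013, so the sign for this gene was not settled. Slc15a2 (PEPT2), a surface peptide transporter near the CPM minimum, read 1.73, 1.40, 1.75, 3.04 and 1.43 CPM in CTR 1 to 5 and 2.09, 0.871, 0.350, 0 and 0 in KO 1 to 5 (log2FC -1.48 ± 0.75, adjusted p = 0.266). KO 1 lay in the CTR range. No read was counted in KO 4 and KO 5, where 3 counts allow up to 0.170 and 0.174 CPM. The gene reached the minimum in 5 CTR and 1 KO libraries.

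**Figure D3:**
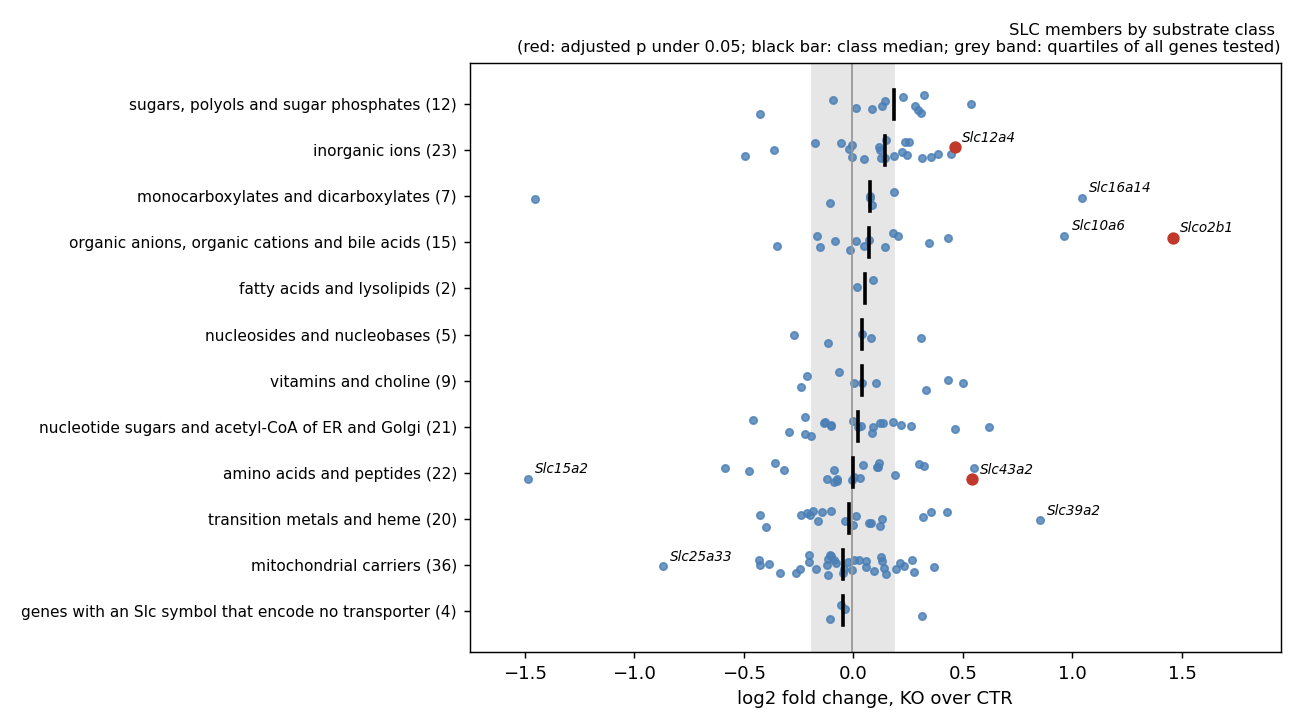
Log2FC, KO over CTR, of the 176 SLC genes by substrate class (number of genes in brackets), with called genes in red, the class median as a black bar, and the quartiles of all 13203 genes tested as a grey band. Sugar and inorganic ion transporters have the highest class medians (0.19 and 0.15), and apart from the sugar median, just past the upper edge of the grey band, the class medians lie inside it.

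Transporters of metals and heme numbered 20, with 0 called, 1 higher and 1 lower at an unadjusted p under 0.05, and a median of -0.018, or -0.095 without CTR 4 and CTR 5. Slc30a1 (ZnT1), the zinc exporter of the plasma membrane, read 116, 125, 101, 95.8 and 80.7 CPM in CTR 1 to 5 and 144, 138, 147, 135 and 134 in KO 1 to 5. All KO libraries lay above all CTR libraries. Its log2FC of 0.43 ± 0.11 (adjusted p = 0.0515) missed the threshold, and it was called in 8 of 20 other settings, among them the one without CTR 4 and CTR 5 (0.30, adjusted p = 0.0444). The importer Slc39a2 (ZIP2) read 1.62, 2.10, 2.14, 1.49 and 7.85 CPM in CTR 1 to 5 and 5.16, 4.20, 7.47, 4.50 and 6.09 in KO 1 to 5. CTR 5 was the highest of all libraries, and the other controls lay below the KO range. Of its exonic bases 4.38% are shared with Mettl17 on the same strand, at 14.5 CPM in CTR against 18.4 in KO. The log2FC was 0.85 ± 0.42 (adjusted p = 0.255), and 1.48 without CTR 4 and CTR 5 (adjusted p = 0.00722). The heme transporter Slc48a1 averaged 375 ± 31.1 CPM in the controls and 396 ± 47.4 in the knockouts (log2FC 0.079 ± 0.10, adjusted p = 0.668), and Slc39a1 averaged 286 ± 6.63 CPM in the controls and 300.0 ± 8.85 in the knockouts (log2FC 0.070 ± 0.065, adjusted p = 0.567). Slc39a13 (ZIP13), a zinc transporter of the secretory pathway, had a log2FC of -0.24 ± 0.09 (adjusted p = 0.147), and 4.42% of its exonic bases overlap Psmc3 on the opposite strand, at 111 CPM in CTR against 88.5 in KO. After the length and GC correction Slc39a13 was called lower, at -0.39 (adjusted p = 0.0221). Slc30a5, which loads zinc into the secretory pathway, had -0.18 ± 0.094 (adjusted p = 0.275), and -0.29 without CTR 4 and CTR 5 (adjusted p = 0.0399).

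Sugar transporters numbered 12, with 0 called, 4 higher and 1 lower at an unadjusted p under 0.05, and a median of 0.19, or 0.084 after the correction for gene length and GC content and 0.32 without CTR 4 and CTR 5. Of these 12, 10 had a log2FC above 0. Slc45a4, of the proton-coupled sugar transporter family, read 82.5, 83.5, 72.6, 69.4 and 66.6 CPM in CTR 1 to 5 and 98.2, 97.9, 86.3, 93.1 and 92.6 in KO 1 to 5, without overlap (log2FC 0.32 ± 0.088, adjusted p = 0.0623). Slc2a3 (GLUT3), a glucose transporter of high affinity, averaged 3.98 ± 0.569 CPM in the controls and 5.79 ± 1.35 in the knockouts (log2FC 0.54 ± 0.18, adjusted p = 0.113). Slc2a9, which carries urate, had a log2FC of 0.31 ± 0.13 (adjusted p = 0.180), and Slc37a1, an exchanger of sugar phosphates, 0.28 ± 0.13 (adjusted p = 0.218). Slc50a1, the mammalian SWEET protein, had -0.43 ± 0.15 (adjusted p = 0.113). Slc37a4, which brings glucose 6-phosphate into the endoplasmic reticulum, read 20.2, 16.9, 17.4, 31.8 and 17.6 CPM in CTR 1 to 5 and 24.5, 29.1, 25.1, 27.2 and 21.4 in KO 1 to 5. CTR 4 lay above all other libraries, controls and KO alike, and the log2FC was 0.30 ± 0.17 (adjusted p = 0.339) with it and 0.49 without CTR 4 and CTR 5 (adjusted p = 0.0310). The most abundant of the class, the sugar phosphate exchanger Slc37a2, averaged 349 ± 79.7 CPM in the controls and 369.8 ± 93.0 in the knockouts (log2FC 0.085 ± 0.18, adjusted p = 0.812).

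Carriers of vitamins and choline numbered 9, with 0 called and 3 higher at an unadjusted p under 0.05. Slc23a2 (SVCT2), which takes up vitamin C with sodium, read 121, 136, 123, 78.2 and 98.3 CPM in CTR 1 to 5 and 142, 162, 149.9, 158 and 177 in KO 1 to 5. No KO library lay in the CTR range, and CTR 4 and CTR 5 were the lowest controls. The log2FC was 0.50 ± 0.14 (adjusted p = 0.0604), and 0.32 without CTR 4 and CTR 5 (adjusted p = 0.0384). Slc44a1, the choline transporter, was also higher without overlap, at 77.9 ± 11.7 and 98.0 ± 5.18 CPM (log2FC 0.33 ± 0.11, adjusted p = 0.100). It was called with the length and GC correction, at 0.38 (adjusted p = 0.0338). Slc46a3, a lysosomal transporter of the folate carrier family, averaged 31.8 ± 3.97 CPM in the controls and 42.9 ± 8.604 in the knockouts (log2FC 0.43 ± 0.14, adjusted p = 0.103).

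Mitochondrial carriers formed the largest class, 36 genes, of which 0 were called, 2 were higher and 6 lower at an unadjusted p under 0.05, and none was free of overlap. The median was -0.045, with 15 above and 21 below 0, and -0.00784 without CTR 4 and CTR 5. Slc25a39, which carries glutathione into mitochondria, read 82.5, 66.4, 90.7, 92.2 and 76.4 CPM in CTR 1 to 5 and 66.4, 63.9, 68.1, 69.2 and 56.3 in KO 1 to 5. CTR 2 lay in the KO range and the other controls above it. Its log2FC was -0.33 ± 0.10 (adjusted p = 0.0902), and it was called lower in 4 of 20 other settings, without CTR 2 among them. Slc25a33, a pyrimidine nucleotide carrier at a low level, averaged 2.93 ± 0.820 CPM in the controls and 1.603 ± 0.557 in the knockouts (log2FC -0.87 ± 0.27, adjusted p = 0.0919). Slc25a44, the branched-chain amino acid carrier, read 69.4, 83.6, 77.1, 41.8 and 83.9 CPM in CTR 1 to 5 and 61.4, 40.4, 52.0, 56.8 and 53.3 in KO 1 to 5. CTR 4 lay in the KO range and the other controls above it. Its log2FC was -0.43 ± 0.18 (adjusted p = 0.178), and -0.54 without CTR 4 and CTR 5 (adjusted p = 0.0281). The ATP-ADP exchangers lay on opposite sides of 0: Slc25a5 (ANT2) had 357 ± 46.4 and 298 ± 33.9 CPM (log2FC -0.26 ± 0.11, adjusted p = 0.188), and Slc25a4 (ANT1) 99.9 ± 23.9 and 110.1 ± 7.98 CPM (log2FC 0.14 ± 0.14, adjusted p = 0.601). Slc25a4 was called higher without CTR 4 and CTR 5, at 0.41 (adjusted p = 0.0178). The glycine carrier Slc25a38, needed for heme synthesis, had 0.22 ± 0.11 (adjusted p = 0.291), and 0.36 without these libraries (adjusted p = 0.0460). Slc25a35, Slc25a14 and Slc25a30 had log2FC values of -0.42, -0.38 and 0.28, with adjusted p of 0.112, 0.227 and 0.117. Of the exonic bases of Slc25a35, 31.3% overlap Rangrf on the opposite strand.

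Carriers of the endoplasmic reticulum and Golgi apparatus, mostly of nucleotide sugars, numbered 21, with 0 called, 1 higher and 2 lower at an unadjusted p under 0.05 and a median of 0.022, or -0.022 without CTR 4 and CTR 5. Slc35f6, grouped here by its family, read 133, 141, 135, 81.0 and 140.1 CPM in CTR 1 to 5 and 240.3, 188, 151, 200.2 and 189 in KO 1 to 5. The genotypes did not overlap, and CTR 4 was the lowest control. Its log2FC was 0.62 ± 0.16 (adjusted p = 0.0502), and 0.51 without CTR 4 and CTR 5 (adjusted p = 0.0368). Slc35b1, which brings ATP into the endoplasmic reticulum, averaged 47.1 ± 8.62 CPM in the controls and 34.3 ± 5.71 in the knockouts (log2FC -0.46 ± 0.15, adjusted p = 0.0942). Slc35c2 had a log2FC of -0.22 ± 0.094 (adjusted p = 0.193), and -0.37 with the length and GC correction, where it was called (adjusted p = 0.0221). Slc35e1, an orphan of the family, was higher without overlap at 66.1 ± 5.64 and 74.9 ± 4.05 CPM (log2FC 0.18 ± 0.084, adjusted p = 0.230), and the most abundant per length, Slc35f5, averaged 52.5 ± 2.79 CPM in the controls and 52.4 ± 1.77 in the knockouts (log2FC -0.00123 ± 0.074, adjusted p = 0.994). Slc35g1, at the CPM minimum, had 1.17 ± 0.486 and 1.01 ± 0.592 CPM (log2FC -0.22 ± 0.46, adjusted p = 0.811).

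Transporters of organic anions, organic cations and bile acids numbered 15, with Slco2b1 the 1 called and the 1 at an unadjusted p under 0.05. Slc17a5 (sialin), which exports sialic acid from lysosomes and was the most abundant of them per length, averaged 73.2 ± 7.003 CPM in the controls and 83.0 ± 3.42 in the knockouts (log2FC 0.18 ± 0.085, adjusted p = 0.236). Monocarboxylate and dicarboxylate carriers numbered 7, with 0 called and 2 higher and 1 lower at an unadjusted p under 0.05. The class median was 0.077, or -0.012 without CTR 4 and CTR 5. Slc16a14, an orphan of the family, read 1.01, 1.17, 1.19, 1.15 and 0.312 CPM in CTR 1 to 5 and 2.38, 2.05, 1.92, 1.86 and 1.78 in KO 1 to 5. The KO libraries were all above the controls, and the log2FC was 1.04 ± 0.30 (adjusted p = 0.0691), and 0.83 without CTR 4 and CTR 5, where it was called (adjusted p = 0.0420). This gene is near the CPM minimum. On total counts, as in the selection, it reached 1 CPM in 3 CTR and 5 KO libraries, so the KO libraries alone met the rule. Slc16a10 (TAT1), which lets aromatic amino acids and thyroid hormone pass and was the most abundant of this class per length, averaged 108 ± 9.73 CPM in the controls and 123 ± 7.34 in the knockouts (log2FC 0.19 ± 0.085, adjusted p = 0.227).

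Nucleoside carriers numbered 5, with 0 called, 1 higher and 0 lower at an unadjusted p under 0.05. Their median was 0.041, or 0.11 without CTR 4 and CTR 5. Slc28a2 (CNT2), which takes up purine nucleosides with sodium, averaged 55.6 ± 8.82 CPM in the controls and 68.9 ± 4.07 in the knockouts (log2FC 0.31 ± 0.11, adjusted p = 0.131), and the lysosomal nucleoside exporter Slc29a3 averaged 389 ± 96.1 CPM in the controls and 359.8 ± 35.3 in the knockouts (log2FC -0.11 ± 0.16, adjusted p = 0.707). Slc29a3 was called lower without CTR 4 and CTR 5, at -0.33 (adjusted p = 0.0384). The fatty acid transport proteins were 2, Slc27a1 and Slc27a4. Slc27a1, which brings long-chain fatty acids in and activates them, averaged 279 ± 31.8 CPM in the controls and 297 ± 14.1 in the knockouts (log2FC 0.092 ± 0.089, adjusted p = 0.579), and Slc27a4 had a log2FC of 0.016 ± 0.078 (adjusted p = 0.921). The 4 genes with an SLC symbol that encode no transporter (Slc9a3r1, Slc9a3r2, Slc4a1ap and Slc7a6os) had 0 calls, and Slc9a3r1 averaged 423 ± 44.8 CPM in the controls and 407 ± 32.6 in the knockouts (log2FC -0.057 ± 0.093, adjusted p = 0.755).

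Lists cut across the classes were read from the same fit. Of 18 SLC genes of endosomes and lysosomes, 16 (all but Slc49a4 and Slc66a1) were matched and tested, with 0 called, 2 higher and 1 lower at an unadjusted p under 0.05, a median of 0.09 and 11 above 0. Without CTR 4 and CTR 5 the median was 0.00474, and 2 of the 16 were called lower (Slc36a1 and Slc29a3), beside 3.63% of all genes. SLC targets of the amino acid response factor ATF4 were 10, of which 7 were tested, with 0 called and a median of -0.076. Of these, Slc7a6 was the 1 below an unadjusted p of 0.05. Slc38a2, Slc7a1 and Slc1a5, which import glutamine and cationic amino acids, had log2FC values of -0.088, 0.19 and -0.076, with adjusted p of 0.695, 0.700 and 0.794. Without KO 5, the library where it was highest, Slc7a1 was at -0.18. Of 16 partners listed, 12 were tested. Of these 12 partners of SLC proteins, such as the chaperone basigin and the kinases that regulate the KCC proteins, 0 were called and 0 had an unadjusted p under 0.05. Without CTR 4 and CTR 5 Prkaa1, a catalytic subunit of AMP-activated kinase, was called lower, at -0.32 (adjusted p = 0.0267).

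Transporter genes of the same superfamilies without an SLC symbol gave 27 tested of 35, with 1 higher and 1 lower called. Mfsd12, which carries cystine into lysosomes and melanosomes, read 845, 885, 813, 717 and 886 CPM in CTR 1 to 5 and 1093, 1141, 1028, 1097 and 944 in KO 1 to 5. It rose from 829 ± 70.0 CPM in the controls to 1061 ± 76.8 in the knockouts (log2FC 0.35 ± 0.086, adjusted p = 0.0412). Mtch2, an insertase of the outer mitochondrial membrane derived from the carrier family, read 98.6, 101, 108, 114 and 108 CPM in CTR 1 to 5 and 79.7, 74.3, 83.5, 74.1 and 86.7 in KO 1 to 5. It fell from 106 ± 5.94 CPM in the controls to 79.7 ± 5.56 in the knockouts (log2FC -0.41 ± 0.08, adjusted p = 0.0205). In both genes the genotypes did not overlap. The correction for length and GC content ended the call of Mfsd12, at 0.20 (adjusted p = 0.223).

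**Figure D4:**
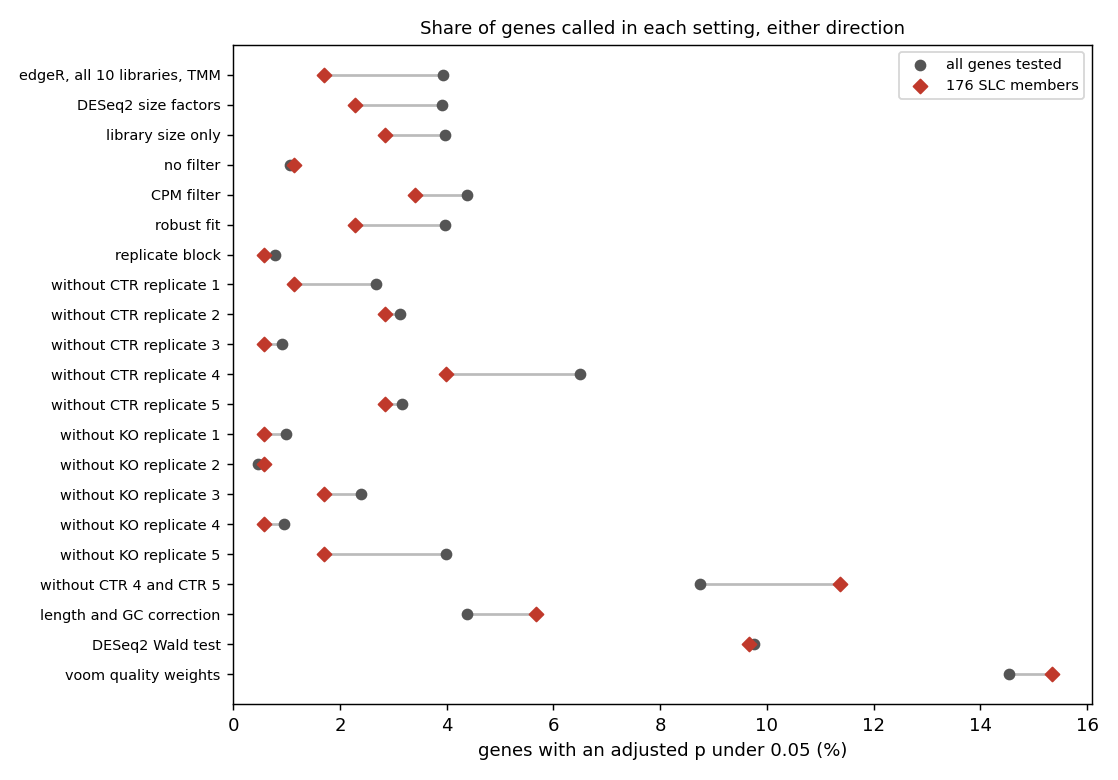
Share of genes with an adjusted p under 0.05 in either direction (x axis, percent), for all genes tested (grey circles) and for the 176 SLC genes (red diamonds), in each of 21 settings (y axis). With all 10 libraries edgeR called 1.70% of SLC genes and 3.94% of all genes, and without CTR 4 and CTR 5 it called 11.4% and 8.76%.

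The number of SLC calls differed between settings. DESeq2's Wald test called 14 SLC genes higher and 3 lower, beside 4.54% and 5.23% of all genes (9.77% in all). Limma voom with quality weights, which gives a discordant library less weight, called 20 and 7, beside 7.77% and 6.76% (14.5% in all). Among tested genes under the CPM minimum, Slc6a12 was called lower by both methods and Slc27a6 by voom alone. The correction for gene length and GC content called 7 and 3, beside 2.04% and 2.34% (4.39% in all). Slco2b1, Slc43a2 and Slc12a4 were called in all of these and without CTR 4 and CTR 5. Slc30a1 and Slc23a2 were among the genes that joined them in each. Without CTR 4 and CTR 5, 28 SLC genes were higher and 10 lower without overlap of 3 CTR and 5 KO libraries, against 10.1% and 9.88% of all genes.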

How the data were processed

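Bulk RNA sequencing covered 5 CTR and 5 KO libraries of mouse peritoneal macrophages. The authors deposited raw counts per Ensembl gene and FPKM values. Tools named in the submitters' processing notes are HISAT2, SAMtools 1.3.1, CASAVA 1.8 and edgeR, with the build GRCm39; read counter, strand setting and annotation release were not given in the sources used here. FPKM as deposited equal counts over gene length and total count within a relative 0.000186 at 50 counts or more, so they follow the counts.

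Symbols were matched for 53274 of 53465 genes; the other 191 held 0.0403% of counts. The members, lists and rules were chosen with earlier results of these data known. Substrate classes were assigned by family, and Slc7a6os was moved to the genes that encode no transporter after a first assignment. The counts went into edgeR 4.0.16 under R 4.3.3 (filterByExpr, TMM, quasi-likelihood test, two-sided, genotype only, Benjamini-Hochberg over 13203 genes, threshold 0.05). The biological coefficient of variation was 0.200. Each SE is the size of the log2 fold change divided by the root of its F statistic. CPM in the results are on TMM-scaled library sizes, those of the selection on total counts, and ± is the SD over 5 libraries. A count of 3, taken as the limit that a count of 0 allows, was 0.156 to 0.192 CPM, which covers counting error only. The script was tested on simulated data.

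Named were all called genes, per class the gene of highest FPKM and of lowest p, genes at the CPM minimum, family relatives of called genes, called genes of the list without an SLC symbol, and Gnas. A few genes that this rule takes are not reported here. Others named (unadjusted p under 0.05, the 6 highest in FPKM, called without CTR 4 and CTR 5, cyclic AMP response element holders and some amino acid carriers) were chosen after their values were seen. Other settings were DESeq2 1.42.0 (size factors, Wald test), library size only, no filter, a filter at 1 CPM in 5 libraries (CPM filter), a robust fit, limma 3.58.1 voom with quality weights, the replicate block and each library left out. Added after the data were seen were the fit without CTR 4 and CTR 5 and a smooth correction for gene length and GC content (mgcv 1.9.3). Promoters are from RefSeq on GRCm38.p6, another build than the authors', and overlaps from GENCODE M21.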

Additional observations from a re-analysis of the deposited data

Results flagged for a closer look

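In each group of 5 libraries, the highest and the lowest library of every SLC gene was compared with the nearest of the others. A gap that takes more of the group's range than Dixon's 95% critical value singles it out, and chance does so in about 1 in 20 groups. Over all 176 genes 16 CTR groups and 14 KO groups were singled out, 9 of them through CTR 4, 6 through CTR 5, 9 through KO 5, 3 through KO 1 and 1 each through CTR 2, KO 2 and KO 4.

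Among the genes named in the report these were 15. In CTR 4, Slc37a2 stood at 489 CPM (others 289.9 to 329), Slc37a4 at 31.8 CPM (others 16.9 to 20.2), Slc7a6os at 24.5 CPM (others 16.5 to 18.6), and Slc15a2 at 3.04 CPM (others 1.40 to 1.75), each the highest control, while Slc35f6 was the lowest at 81.0 CPM (others 133 to 141). In CTR 5, Slc7a8 was the highest at 274 CPM (others 139 to 168), Slc7a7 at 69.9 CPM (others 35.95 to 37.8), and Slc39a2 at 7.85 CPM (others 1.49 to 2.14), while Slc16a14 was the lowest at 0.312 CPM (others 1.01 to 1.19). In KO 5, Slc7a1 was the highest at 34.6 CPM (others 11.3 to 15.4), Slc1a5 at 37.0 CPM (others 23.6 to 26.8), Slc12a7 at 49.0 CPM (others 44.0 to 45.2), and Slc35e1 at 82.1 CPM (others 72.9 to 73.4), while Slc9a3r1 was the lowest at 351 CPM (others 411 to 434). In KO 4, Slc38a7 was the lowest at 44.7 CPM (others 81.2 to 86.7). Genes measured in the same library are not independent, and why these libraries stood out was not tested.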

How the results depend on the processing

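The share of all genes called in either direction stands in brackets, beside counts of SLC genes in 1 direction. Called higher were 1.83% of all genes by edgeR with all libraries, 4.54% by DESeq2's Wald test and 7.77% by voom. With the length and GC correction that share was 2.04%, and without CTR 4 and CTR 5 it was 5.13%. Of 3 SLC genes called higher (3.94%), the count was 4 with DESeq2 size factors (3.91%) or the robust fit (3.98%), 2 without a filter (1.07%), 5 with library size only (3.98%), 6 with the CPM filter (4.38%), 14 with DESeq2's Wald test (9.77%), 20 with voom quality weights (14.5%), 7 with the length and GC correction (4.39%) and 15 without CTR 4 and CTR 5 (8.76%). Leaving out 1 library at a time gave 1 to 6 (0.465% to 6.49%), with 1 left without CTR 3, KO 1, KO 2 or KO 4, 5 without CTR 5 and 6 without CTR 4. None was called lower by edgeR with all libraries (14 at an unadjusted p under 0.05). That count was 3 with DESeq2's Wald test, 7 with voom quality weights, 3 with the length and GC correction, 5 without CTR 4 and CTR 5, and 0 to 1 with a library left out, through Slc25a39 (without CTR 2) and Slc25a44 (without CTR 4). Of all genes, 2.11% were called lower by edgeR with all libraries, 5.23% by the Wald test and 6.76% by voom. The share lower was 2.34% with the length and GC correction and 3.63% without CTR 4 and CTR 5. Equal replicate numbers correlated from -0.126 to 0.0582 in their residuals over genes, which cannot decide whether the numbers pair the libraries. The labels do not say whether they do. With the replicate block 1 SLC gene was called higher and 0 lower (0.788%). The causes of these shifts were not tested.

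Signs turned in SLC genes near 0 or resting on few libraries (log2FC throughout). Slc27a1 moved from 0.092 to -0.094 corrected for length and GC. Slc9a3r1, at -0.057, gave -0.083 to 0.00912 with a library left out. Slc35f5, at -0.00123, gave -0.018 to 0.028 with a library left out, 0.00410 on DESeq2 size factors, 0.035 on library size only, 0.00493 after the CPM filter, 0.10 corrected for length and GC and 0.00356 by the Wald test. Slc37a2, at 0.085, gave -0.045 to 0.24 with a library left out. Slco3a1, at -0.014, gave -0.17 to 0.15 with a library left out, 0.013 on library size only, 0.048 without both CTR 4 and CTR 5 and 0.039 by voom. Slc35g1, at -0.22, gave -0.55 to 0.044 with a library left out. Slc6a6 moved from 0.11 to -0.080 without both CTR 4 and CTR 5 and -0.028 by voom. Slc36a1, at 0.046, gave -0.24 to 0.21 with a library left out, -0.37 without both CTR 4 and CTR 5, -0.013 corrected for length and GC and -0.15 by voom. Slc3a2, at -0.072, gave -0.13 to 0.033 with a library left out, 0.049 without both CTR 4 and CTR 5 and 0.024 by voom. Slc7a1, at 0.19, gave -0.18 to 0.32 with a library left out and -0.075 by voom. Slc1a5 moved from -0.076 to 0.028 without both CTR 4 and CTR 5. Slc7a6os, at -0.038, gave -0.081 to 0.075 with a library left out, 0.00710 on library size only, 0.11 without both CTR 4 and CTR 5 and 0.085 by voom.

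An SLC gene without a call is not shown to be equal between the genotypes, since 5 libraries a group give SE of log2FC that reach 0.745 in genes near the CPM minimum. Large SE were not confined to such genes. Slc36a1, at 153 ± 82.6 CPM in CTR with CTR 4 far under the other libraries, had an SE of 0.445.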
